A study of Arabidopsis thaliana and Zea mays with 12 samples.

Results

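Leaf transcripts of Arabidopsis thaliana were compared between arrays that their titles number as biological replicate 1, called first arrays here, and arrays numbered 2 or 3, called later arrays. There were 2 first arrays, 1 of the phenotype labelled Br and 1 of the phenotype labelled Ag. They were set against 4 later arrays, 2 of Br and 2 of Ag. These 6 arrays are those of Arabidopsis among the 12 of the series, and the other 6 hold maize. The split into first and later arrays was chosen with values of these same arrays known. First minus later differences of genes are therefore described and carry no test, and "higher" and "lower" below state measured values. The labels do not say what, besides the number, sets a first array apart.

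All 6 arrays are Affymetrix ATH1 arrays, on which a set of short probes reads each transcript. RNA came from leaves of 2-week-old plants, which the labels say were collected near the middle of the light period. It was pooled over replicated plants before labelling. The labels do not spell out what the names Br and Ag stand for, and they describe no treatment. Signals are intensities with no zero point of their own. Each array was scaled so that the mean signal was 100 with the lowest and highest 2% of probe sets left out, and the median signal lay between 32.3 and 37.5. With 1 first array per phenotype, the small number of arrays sets the precision. Of the mesophyll markers RCA was measured, which encodes the activase that keeps Rubisco working. It read 4287 on the first Br array and 4553 on the first Ag array, against 4237 and 4435 on the later Br arrays and 5715 and 6567 on the later Ag arrays.

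Many leaf transcripts cycle over the day. The circadian clock is a loop of genes that repress each other in turn, and GIGANTEA (GI) belongs to the part that peaks in the later hours of the day, where it links the clock to flowering and to cold tolerance. COR genes are known for their induction by cold and by water loss, and several encode hydrophilic proteins that protect membranes in the chloroplast and the cytosol. Leaves store starch by day and break it down at night, and the breakdown starts when dikinases add phosphate to the granule surface. Plastids hold a small genome of their own, which encodes core subunits of the photosystems, the NADH dehydrogenase-like (NDH) complex and the plastid ribosome.

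A probe set was counted as a shared change where its first minus later difference, fitted over the 6 arrays with phenotype as a covariate, was at least 1 in size on the scale of log2(signal + 16). In addition, the first array had to lie beyond both later arrays in Br and in Ag alike. No size was required within each phenotype, so a shared change can be small in 1 of them. A difference of 1 is a 2-fold change for bright transcripts, and this scale understates the change of dim ones. Of 13513 probe sets that list 1 gene, 86 were shared changes with higher signal on the first arrays (0.636%) and 33 with lower signal (0.244%), or 119 in either direction (0.881%). Over all 22746 probe sets, with or without a listed gene, the counts were 167 (0.734%) and 91 (0.400%). Among the 86, 11 were at least 4-fold higher on this scale, and none of the 33 was 4-fold lower. These probe sets were brighter than most: their median mean signal was 156 for the higher and 116 for the lower ones, against 27.4 over all 13513. The limit of 1 on this scale keeps out probe sets that are dim on every array, so nothing is read from their brightness. Both first arrays lay above all 4 later arrays for 80 of the 86 and below all 4 for 30 of the 33. The condition within each phenotype nearly fixes these counts, so nothing is read from them or from the shares over all 13513 probe sets, which were 8.99% upwards and 8.75% downwards.

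The bulk of the transcripts differed little. Over the 13513 probe sets the median difference was -0.0036, and the middle 50% lay between -0.15 and 0.15. The difference within Br and the difference within Ag had a Pearson correlation of 0.27 and a Spearman correlation of 0.17 across these probe sets, which share the same 6 arrays and are not independent replicates. Of 177 probe sets at least 1 higher on the first Br array, 26.6% were also at least 1 higher on the first Ag array, and these 47 were 48.0% of the 98 that were so in Ag. Downwards, 11 probe sets passed in both, which is 9.73% of the 113 in Br and 19.6% of the 56 in Ag. At most 47 of the 86 higher and 11 of the 33 lower shared changes thus reached 1 in both phenotypes. The others fell short of 1 in Br or in Ag. The values next to the limit were close to each other. The lowest shared changes on the higher side were AT3G15440 at 1.00 and AT4G01130 at 1.01, and just outside were CHL, a chloroplast lipocalin gene, and ALDH6B2, an aldehyde dehydrogenase gene, both at 0.98. On the lower side AT3G59780 and AT5G12470 were at -1.01, and AT1G62510 and AT3G48460 were just outside at -0.997 and -0.998.

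**Figure D1:**
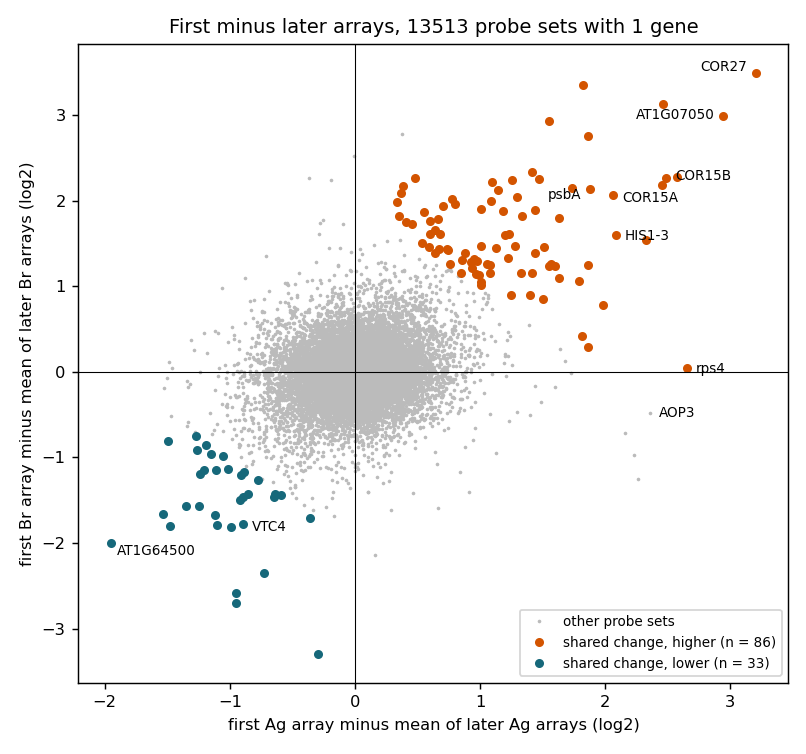
First minus later difference of each probe set with 1 gene (n = 13513), in log2(signal + 16) after quantile normalization, with the first Ag array minus the mean of the later Ag arrays on the x axis and the first Br array minus the mean of the later Br arrays on the y axis. Orange points are the 86 shared changes with higher signal on the first arrays, blue points the 33 with lower signal, and grey points all others, which gather around 0 while COR27 lies farthest to the upper right.

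Both measured genes of the evening part of the clock were among the higher shared changes, which are 0.636% of all probe sets with 1 gene. The list held 21 names, so this holds for the 2 measured genes only. COR27 (AT5G42900), a cold-regulated gene whose protein represses other clock genes at night, had the largest difference of all probe sets with 1 gene. It read 207 on the first Br array and 242 on the first Ag array, against 6.66 and 1.58 on the later Br arrays and 27.2 and 0.810 on the later Ag arrays. The difference was 3.35 ± 0.38 (SE of the fit over 6 arrays). The first arrays were close to each other, and the lowest of them was above every later array. GI (AT1G22770) read 593.6 and 493 on the first Br and Ag arrays, against 111 and 124 on the later Br arrays and 326 and 152 on the later Ag arrays. Its difference was 1.66 ± 0.35, and the second Ag array lay between the first arrays and the other later ones. CCA1, LHY and TOC1, of the other parts of the clock, had no probe set that lists them alone in the gene table used.

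Of 7 measured genes of the cold and dehydration response, 4 were higher shared changes and 0 lower ones, against 0.636% and 0.244% of all probe sets with 1 gene. The list held 64 names, so the share holds for the 7 measured genes only. The median difference of the 7 was 1.08, against -0.0036 over all probe sets with 1 gene. COR15A (AT2G42540) and COR15B (AT2G42530) encode chloroplast proteins that protect membranes during freezing. COR15A read 1444 on the first Br array and 1539 on the first Ag array, against 289 and 393 on the later Br arrays and 729.96 and 173 on the later Ag arrays, a difference of 2.07 ± 0.49. COR15B read 599.9 and 1336 on the first Br and Ag arrays, against 108 and 123 on the later Br arrays and 499 and 97.8 on the later Ag arrays, a difference of 2.37 ± 0.53. The genes are neighbours and close copies, so their probe sets may read some of the same RNA. In both, the second Ag array was above the other 3 later arrays, and the first arrays were above all 4.

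LTI30 (AT3G50970), a dehydrin gene, read 490.4 and 416 on the first Br and Ag arrays. Its later arrays read 128 and 202 in Br and 238 and 13.0 in Ag, so that the spread among the later arrays was wide, and its difference was 1.93 ± 0.78. COR47, a second dehydrin gene, read 2587 and 2299 on the first Br and Ag arrays, against 1187 and 1500.3 on the later Br arrays and 1318 and 755 on the later Ag arrays, a difference of 1.08 ± 0.23. The other 3 members were not shared changes. The drought-induced gene DI19 had a difference of 0.30, the zinc finger gene STZ, known for its induction by salt and cold, had 0.10, and DI21 had -0.05. Summed over the 7 genes, the signal was 6192 and 6942 on the first Br and Ag arrays, against 2480 and 2970 on the later Br arrays and 4113 and 2425 on the later Ag arrays.

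**Figure D2:**
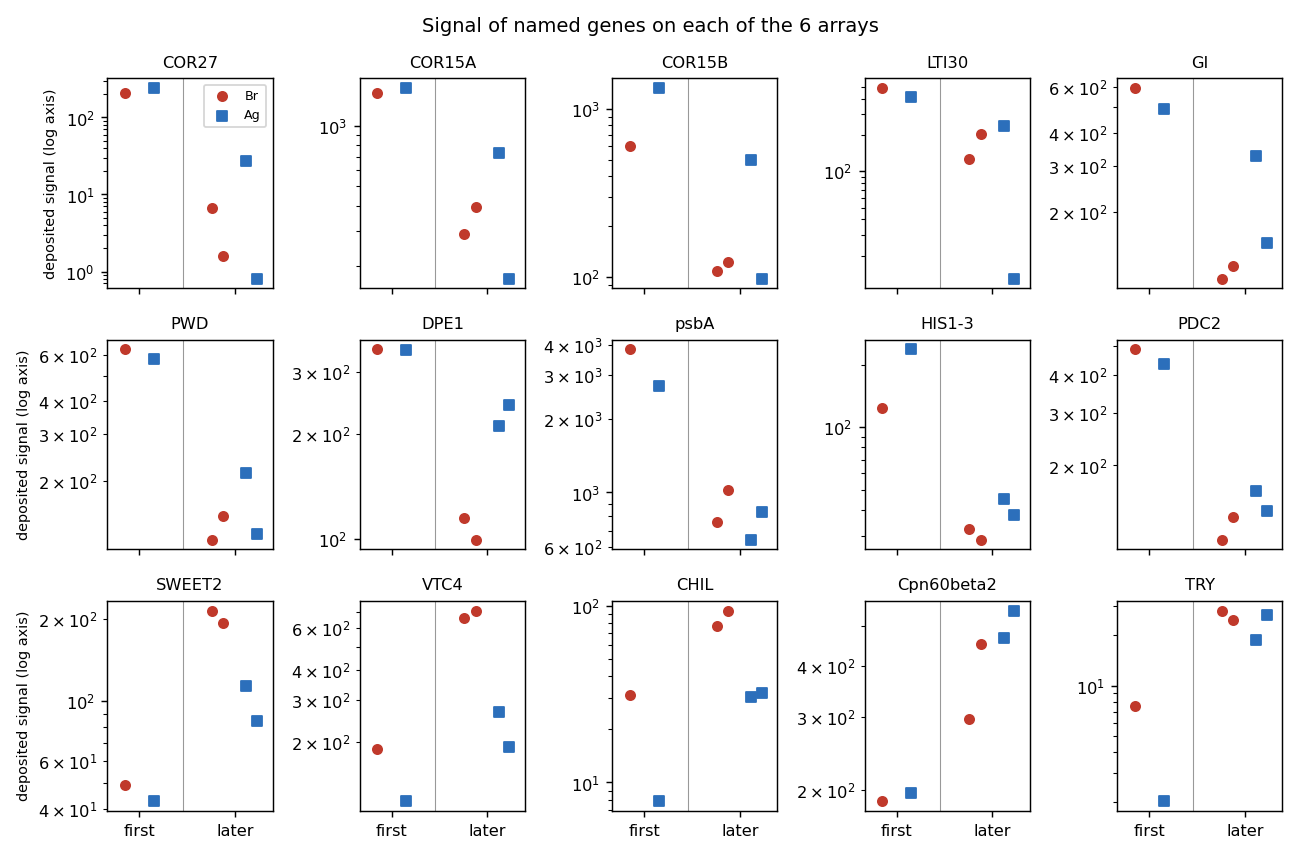
Deposited signal of 15 genes on each of the 6 arrays, on a log axis that differs between panels, with first arrays left of the grey line and later arrays right of it, Br as red circles and Ag as blue squares. In the upper 10 panels both first arrays lie above the later arrays, and in the lower 5 each first array lies below the later arrays of its phenotype.

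Genes of starch breakdown were split. PWD (AT5G26570) encodes phosphoglucan water dikinase, which phosphorylates the starch granule for breakdown. It read 630.0 on the first Br array and 578 on the first Ag array, against 119 and 147 on the later Br arrays and 214 and 126 on the later Ag arrays. The difference was 1.94 ± 0.23, and both first arrays were far above all 4 later ones. DPE1 (AT5G64860), the plastid disproportionating enzyme that joins short glucan chains, read 347 and 346 on the first Br and Ag arrays, against 115 and 99.6 on the later Br arrays and 209.7 and 240.4 on the later Ag arrays, a difference of 1.11 ± 0.24. A second dikinase locus that the gene table also lists as PWD, AT4G24450, had a difference of -0.095, and the amylase gene AMY1 had 0.15. Thus 2 of 4 measured genes of starch breakdown were shared changes, both higher, against 0.636% of all probe sets with 1 gene. The list median was 0.63. The list held 34 names, so both values hold for the 4 measured genes only. The 3 measured genes of starch and sucrose synthesis were all on the other side of 0. They were the branching enzyme gene SBE2.2 at -0.30 and the ADP-glucose pyrophosphorylase genes APL3 and APL4 at -0.49 and -0.35, and none was a shared change.

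The list of sugar starvation and dark response genes, which includes sugar transporters, had 16 measured members, of which 0 were higher and 2 were lower shared changes, against 0.636% and 0.244% of all probe sets with 1 gene. The list median was 0.04. Both that were lower encode SWEET sugar transporters. SWEET2 (AT3G14770) moves sugar across the vacuole membrane. It read 49.2 on the first Br array and 42.8 on the first Ag array, against 215 and 194 on the later Br arrays and 113 and 84.2 on the later Ag arrays, a difference of -1.40 ± 0.22. SAG29 (AT5G13170), also named SWEET15 and known for its rise in ageing leaves, read 2.07 and 2.70 on the first Br and Ag arrays, against 40.2 and 46.7 on the later Br arrays and 11.8 and 2.03 on the later Ag arrays. As deposited, its first Ag array was thus above the third Ag array, and the shared change of SAG29 rests on the normalized values. The vacuolar fructose transporter gene SWEET17 went the other way, at 0.83, short of the limit.

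Other genes with a symbol were among the 23 higher shared changes that have one. HIS1-3 (AT2G18050), a linker histone variant known for its induction by drought, read 124 and 236 on the first Br and Ag arrays, against 32.3 and 28.8 on the later Br arrays and 45.4 and 38.0 on the later Ag arrays, a difference of 1.84 ± 0.16. PDC2 (AT5G54960), a pyruvate decarboxylase of ethanol fermentation, read 488 and 437 on the first Br and Ag arrays, against 113 and 135 on the later Br arrays and 164 and 141 on the later Ag arrays, a difference of 1.66 ± 0.16. In both genes the 4 later arrays lay close together and far below the first arrays. SCPL49, a serine carboxypeptidase-like gene, had a difference of 1.14 ± 0.15. The remaining nuclear genes were not chosen by the naming rule and were picked after their values were seen. They were MGL, a methionine gamma-lyase gene, at 1.38, MPC at 1.09 and the beta-glucosidase gene BGLU44 at 1.08. Their differences within Br were 2.27, 1.72 and 1.42, against 0.48, 0.45 and 0.74 within Ag. In Ag, MGL read 204 on the first array, against 97.4 and 199 on the later ones.

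PYK10 (AT3G09260), a beta-glucosidase of endoplasmic reticulum bodies that is abundant in roots, was a higher shared change with a difference of 1.28 ± 0.41. It read 438 on the first Br array and 236 on the first Ag array, against 118 and 65.9 on the later Br arrays and 193 and 163 on the later Ag arrays. The step was thus small in Ag (0.39) and large in Br (2.17). PYK10 is also 1 of 3 measured root markers. The others read low, LBD16 between 6.19 and 30.0 and EXPA7 between 3.09 and 17.0. Summed over the 3 markers, the signal was 456 on the first Br array and 283 on the first Ag array, against 140.5 and 87.7 on the later Br arrays and 217 and 177 on the later Ag arrays. The part of root tissue in the result was not tested. In such bulk samples, fewer cells of a type and less RNA per cell cannot be told apart. The meristem marker CLV3, the 1 measured of 7 names on its list, was not a shared change, with a difference of 0.51. It read 4.00 and 16.6 on the first Br and Ag arrays and at most 1.51 on the later ones. These signals are near the bottom of the scale. No flower, seed or vascular marker had a probe set with 1 gene.

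Most shared changes lie in genes listed only by a locus code, for which no role is given here. The highest were AT1G07050 at 2.97 ± 0.21 and AT4G33980 at 2.80 ± 0.27. AT1G07050 read 160 on the first Br array and 184 on the first Ag array, against 1.62 and 13.5 on the later Br arrays and 10.3 and 6.97 on the later Ag arrays. AT4G33980 read 143 and 161 on the first Br and Ag arrays, against 3.34 and 1.06 on the later Br arrays and 24.4 and 7.35 on the later Ag arrays. Both were bright on the first arrays and near the bottom of the scale on the later ones. The next were AT4G16146 at 2.59 ± 0.35, AT4G30650 at 2.42 ± 0.72 and AT5G62360 at 2.32 ± 0.93. They were followed by AT1G11210 at 2.31 ± 0.66 and AT1G56300 at 2.24 ± 0.40. The later Ag arrays were far apart in AT4G30650 (720 and 77.0), AT5G62360 (584 and 27.8) and AT1G11210 (113 and 5.32). The lowest were AT1G64500 at -1.98 ± 0.15, AT4G21870 at -1.83 ± 0.43, AT3G28270 at -1.80 ± 0.61 and AT1G73600 at -1.77 ± 0.36. In AT4G21870, AT3G28270 and AT1G73600 the step was wider within Br, at -2.70, -3.29 and -2.58, than within Ag, at -0.95, -0.30 and -0.95. AT1G64500 read 22.7 on the first Br array and 16.9 on the first Ag array, against 133 and 135 on the later Br arrays and 85.7 and 124 on the later Ag arrays. These loci were picked after their values were seen.

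In the TAIR10.1 gene order, 5814 pairs of neighbouring genes were measured, and 118 of them held at least 1 shared change. In 4 pairs both genes were higher shared changes, and in 0 both were lower. The pairs were COR15B with COR15A, AT1G21670 with AT1G21680, AT4G30650 with AT4G30660 and AT4G33980 with AT4G33985. AT4G33985 read 71.7 and 79.8 on the first Br and Ag arrays, against 2.86 and 17.9 on the later Br arrays and 34.3 and 1.49 on the later Ag arrays. Higher shared changes were spread over the 5 nuclear chromosomes at 0.465% (chromosome 5) to 0.727% (chromosome 2) of the probe sets with 1 gene, and lower ones at 0.153% (chromosome 4) to 0.332% (chromosome 5). On the plastid genome the shares were 11.6% and 0%.

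Of 69 measured genes of the plastid genome, 8 were higher shared changes and 0 lower ones, against 0.636% and 0.244% over all probe sets with 1 gene. Their median difference was 0.35, and 57 of the 69 were above 0, against 49.3% of all probe sets with 1 gene. psbA, which encodes the D1 protein at the core of photosystem II, had the largest difference. It read 3828 on the first Br array and 2726 on the first Ag array, against 755 and 1019.6 on the later Br arrays and 641 and 829 on the later Ag arrays, a difference of 2.01 ± 0.19. The first arrays of both phenotypes were well above all 4 later arrays. psaC, for the iron-sulfur subunit of photosystem I that passes electrons to ferredoxin, read 1150.0 and 944 on the first Br and Ag arrays, against 478 and 627 on the later Br arrays and 263 and 276 on the later Ag arrays, a difference of 1.42 ± 0.21. ndhE, for an NDH membrane subunit, read 374 and 386 on the first Br and Ag arrays, against 154 and 171 on the later Br arrays and 114 and 154 on the later Ag arrays, a difference of 1.29 ± 0.16.

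The other 5 plastid genes were chosen after their values were seen, and their difference was wider in Ag than in Br. They were petG of the cytochrome b6f complex at 1.38, the ribosomal protein genes rps4 at 1.35 and rps2 at 1.12, and the NDH genes ndhD at 1.18 and ndhG at 1.08. The gap was narrowest in ndhD, at 0.85 within Br and 1.50 within Ag, and in petG the values were 0.79 and 1.98. The widest gap was that of rps4. The rps4 signal was 4670 on the first Br array and 3366 on the first Ag array, against 4055 and 4175 on the later Br arrays and 561 and 513 on the later Ag arrays. The difference of rps4 was 0.04 within Br and 2.65 within Ag. Over the 69 genes the median difference was 0.05 within Br and 0.58 within Ag. In Br 4 genes were at least 1 higher and 5 at least 1 lower on the first array, and in Ag the counts were 21 and 0. Over all 13513 probe sets with 1 gene they were 177 and 113 in Br and 98 and 56 in Ag. The opposite signs were widest in atpI, a membrane subunit of the ATP synthase, at -0.97 within Br and 2.23 within Ag, and in accD, a subunit of the enzyme that starts fatty acid synthesis, at -0.72 within Br and 2.16 within Ag. Whether the first minus later difference was unlike in Br and Ag was tested by limma across all probe sets. It reached an unadjusted p under 0.05 for 27 of the 69 genes, against 8.79% of all probe sets. After adjustment 0 of the 69 passed, with the lowest limma adjusted p at 0.34.

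Control probe sets for ribosomal RNA were also higher on the first arrays. The 25S rRNA control read 96.1 on the first Br array and 37.9 on the first Ag array, against 8.14 and 8.21 on the later Br arrays and 13.6 and 18.6 on the later Ag arrays. The 5S rRNA control read 30.0 and 26.1 on the first Br and Ag arrays, against 16.4 and 2.29 on the later Br arrays and 5.86 and 9.10 on the later Ag arrays. Both were thus higher on the first arrays in either phenotype. The 25S control had its wider step in Br, whereas the median difference of the plastid genes was wider in Ag. Their part in the plastid result was not tested. The median of the 18 spike controls, RNAs added to every sample in known amounts, was 335 on both first arrays, against 196 and 194 on the later Br arrays and 362 and 378 on the later Ag arrays, so it did not order the arrays in the same way.

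**Figure D3:**
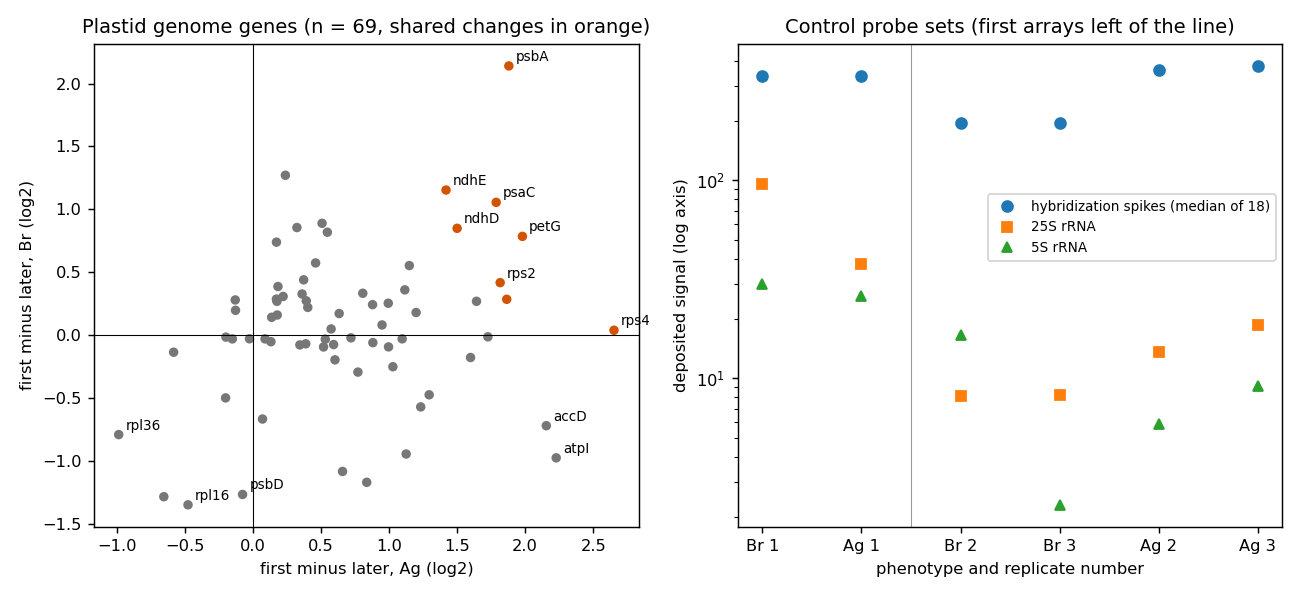
Left, first minus later difference in log2 of the 69 plastid genome genes, within Ag on the x axis and within Br on the y axis, with the 8 shared changes in orange. Right, deposited signal on a log axis of the 25S and 5S rRNA controls and of the median spike control on each array, with first arrays left of the line. More genes lie right of 0 in Ag (58) than above 0 in Br (36), and both rRNA controls are highest on the 2 first arrays.

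Among the lower shared changes, 8 genes had a symbol. VTC4 (AT3G02870), which encodes the phosphatase that releases L-galactose for ascorbate synthesis, read 187 on the first Br array and 113 on the first Ag array, against 659 and 705 on the later Br arrays and 267 and 191 on the later Ag arrays, a difference of -1.33 ± 0.24. CHIL (AT5G05270), a chalcone isomerase-like gene of flavonoid synthesis, read 31.4 and 7.81 on the first Br and Ag arrays, against 77.6 and 94.2 on the later Br arrays and 30.7 and 32.1 on the later Ag arrays, a difference of -1.13 ± 0.12. In both genes, as in SWEET2, the later Br arrays were also above the later Ag arrays. Cpn60beta2 (AT3G13470), a subunit of the plastid chaperonin, read 188 and 197 on the first Br and Ag arrays, against 297 and 452 on the later Br arrays and 467 and 544 on the later Ag arrays, a difference of -1.08 ± 0.20.

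ARPN, the plantacyanin gene, read 60.5 and 26.2 on the first Br and Ag arrays, against 97.5 and 167 on the later Br arrays and 81.8 and 65.7 on the later Ag arrays, a difference of -1.05 ± 0.22. TRY, which encodes a small MYB protein that keeps leaf cells from becoming hairs, read 7.59 and 2.03 on the first Br and Ag arrays, against 28.1 and 24.8 on the later Br arrays and 18.8 and 26.6 on the later Ag arrays. WSD1, a wax ester synthase gene, read 21.9 and 11.8 on the first Br and Ag arrays, against 47.0 and 66.5 on the later Br arrays and 18.1 and 64.4 on the later Ag arrays. TRY and WSD1 were both at -1.02, next to the limit, and neither was a shared change with the values as deposited.

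The other lists described held at most 1 shared change each, and several had a median below the middle 50% of all probe sets with 1 gene. Of 19 measured nuclear genes of photosynthesis and chlorophyll synthesis, 0 were shared changes, with a median of -0.05. Within this list HEMA2, a gene of the first committed step of chlorophyll and heme synthesis, was at 0.79, and the antenna gene LHCB4.3 at -0.69. The 3 Calvin cycle and photorespiration genes were all slightly lower on the first arrays, with a median of -0.24, and sedoheptulose-bisphosphatase (SBPASE) was the lowest at -0.41. Of 12 genes of oxidative stress and detoxification, VTC4 was the 1 shared change, the median was -0.27, and 7 had a first array below both later arrays in each phenotype, against 15.2% of all probe sets with 1 gene. Next to VTC4 were the glutathione reductase gene GR1 at -0.88 and the thioredoxin reductase gene NTRC at -0.56. No shared change was found among 12 jasmonate, wounding and defensin genes (median 0.02), 6 salicylic acid and defence genes (0.03), 6 flavonoid genes (-0.20), 4 aliphatic glucosinolate genes (-0.28), 10 iron and metal genes (-0.17), 27 expansin, xyloglucan and pectin enzyme genes (-0.10) and 51 UDP-glycosyltransferase genes (0.00). Of 11 auxin response genes 0 were shared changes. Their widest difference was that of GH3.3, an auxin-conjugating enzyme gene, at 1.58, with the first Br array at 269 against 28.0 and 25.8 on the later Br arrays, and the first Ag array at 135 between the later Ag arrays at 41.6 and 206.

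**Figure D4:**
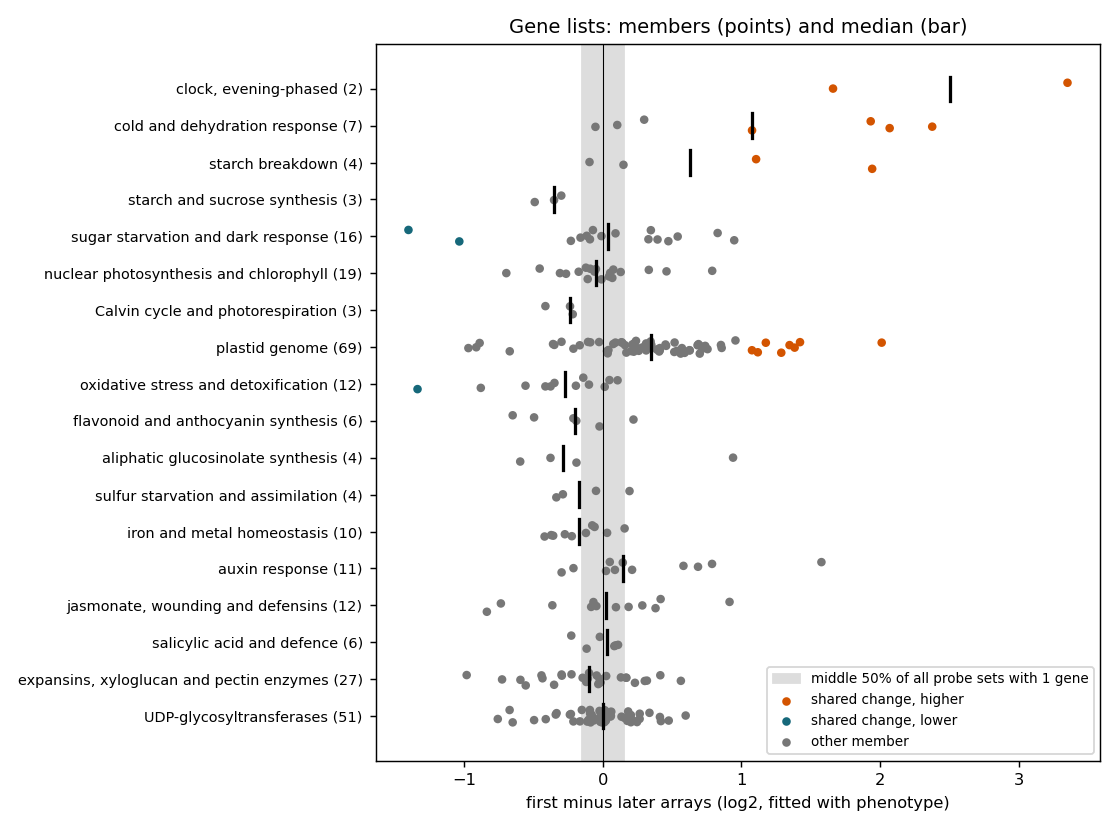
First minus later difference in log2(signal + 16), fitted with phenotype, of the measured members of 18 gene lists (points) and their median (black bar), with the number of members in brackets. Orange and blue points are higher and lower shared changes, and the grey band holds the middle 50% of all probe sets with 1 gene. Among these lists, higher shared changes lie in the evening clock, cold, starch breakdown and plastid genome lists. Lower ones lie in the sugar starvation and dark response and the oxidative stress lists, and most other members lie within 1 of 0.

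The later arrays did not stand at one level. Among the 86 higher shared changes, the second Ag array was above the third in 70 (81.4%), against 50.1% of all probe sets with 1 gene. On the log2 scale the first Br array was above arrays 2 and 3 by a median of 1.59 and 1.63, and the first Ag array by 0.84 and 1.43. In Br both later arrays were thus alike, and the second Br array was above the third in 44 of the 86. Taken as deviations from the mean of the 6 arrays, the medians were 0.92 and 0.88 on the first Br and Ag arrays, against -0.74 and -0.63 on the later Br arrays and 0.02 and -0.54 on the later Ag arrays. The second Ag array thus stood between the first arrays and the other 3 later arrays. For the 33 lower shared changes the second Ag array was above the third in 15, and both later Ag arrays stood between the first arrays and the later Br arrays. There the medians were -0.75 and -1.003 on the first Br and Ag arrays, against 0.77 and 0.88 on the later Br arrays and 0.07 and 0.12 on the later Ag arrays.

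**Figure D5:**
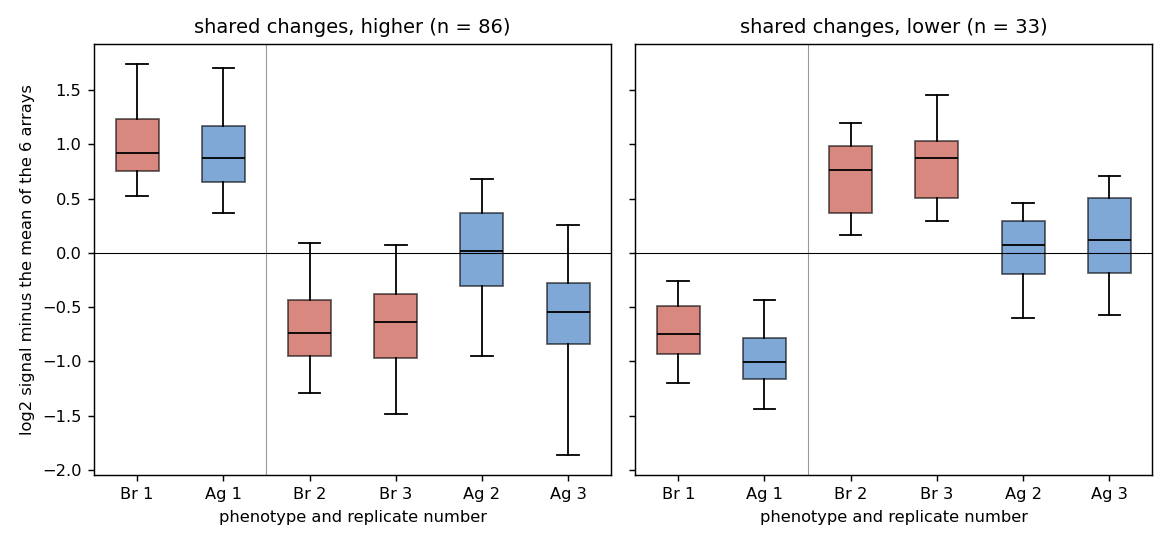
Deviation of each array from the mean of the 6 arrays, in log2(signal + 16) after quantile normalization, over the 86 higher (left) and 33 lower (right) shared changes. Boxes span the middle 50% with the median as a line, whiskers run from the 5th to the 95th percentile, and first arrays are left of the grey line. The second Ag array lies between the first arrays and the other later arrays on the left, and the later Br arrays lie above the later Ag arrays on the right.

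The step was larger in Br than in Ag for 63 of the 86 higher and 25 of the 33 lower shared changes. Wide steps were commoner in Br over all 13513 probe sets with 1 gene as well. There 177 in Br and 98 in Ag were at least 1 higher on the first array, and 113 and 56 at least 1 lower. The wider step in Br is thus not particular to the shared changes. For the lower shared changes the levels of the phenotypes were nearer on the first arrays than on the later ones, with a median Br minus Ag difference of 0.17 on the first and 0.65 on the later arrays. Whether the step differed between Br and Ag was tested with limma as the interaction of phenotype with first or later, which the choice of the split did not use. None of 22746 probe sets passed an adjusted p of 0.05 (0%), with 2000 (8.79%) at an unadjusted p under 0.05 and the lowest adjusted p at 0.34. The fit leaves 2 residual degrees of freedom, which come from the later arrays. On simulated arrays of this design it recovered 2% of planted differences of 1, 86% of those of 2 and 100% of those of 3. These were planted only in bright probe sets, whose lowest signal was above the median of every array. A small difference between the phenotypes would thus have been missed, and the rates do not cover dim probe sets. Large differences went uncalled in these data too, such as that of the bright rps4 at -2.61 (limma adjusted p = 0.34). The rates are therefore no guide to what the test missed here. AOP3 (AT4G03050), an enzyme gene of glucosinolate side chain modification, was among those with opposite steps. It read 1.25 on the first Br array and 93.2 on the first Ag array, against 7.13 and 9.85 on the later Br arrays and 4.25 and 4.62 on the later Ag arrays. Its step in Br minus its step in Ag was -2.84 ± 0.22 (limma adjusted p = 0.34). All AOP3 signals but that of the first Ag array were near the bottom of the scale. AT5G03350 was the 1 probe set at least 1 lower in Br and at least 1 higher in Ag. It read 37.4 and 148 on the first Br and Ag arrays, against 125 and 93.7 on the later Br arrays and 17.8 and 15.0 on the later Ag arrays.

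Control transcripts with probe sets at the 3' and the 5' end gave a sign of RNA and labelling quality. For GAPDH the 3' over 5' ratio was 1.93 on the first Br array and 2.92 on the first Ag array, against 1.17 and 1.38 on the later Br arrays and 2.39 and 2.68 on the later Ag arrays. GAPDH was thus higher on the first array within either phenotype. For actin the ratio was 9.88 and 9.71 on the first Br and Ag arrays, against 4.78 and 4.73 on the later Br arrays and 11.2 and 12.5 on the later Ag arrays. For ubiquitin it was 2.94 and 3.37 on the first Br and Ag arrays, against 2.27 and 2.41 on the later Br arrays and 4.93 and 5.22 on the later Ag arrays. Over these 3 pairs of probe sets and a second pair for each transcript, the first Br array was above both later Br arrays in 5 of 6, and the first Ag array was below both later Ag arrays in 4 and above both in 1. The 3' over 5' ratio thus moved with the split in Br, and its part in the shared changes was not tested. A two-sided exact permutation test of 2 arrays against 4 cannot go below 0.067, and its p values of 0.47 to 1, which leave phenotype out, say nothing on whether the ratios differed.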

How the data were processed

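Transcript levels were measured on 6 ATH1 arrays, 3 of Br and 3 of Ag, each with RNA of pooled plants, per the labels' protocols. The deposited values are intensities on a linear scale, 1 per probe set, already scaled by the authors to a trimmed mean of 100. The software and summary method are not stated in the labels. All columns used belong to a labelled sample (0 without one), and the 6 maize arrays were not used here.

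The 64 control probe sets named AFFX were removed, leaving 22746. Values were converted to log2(intensity + 16) and quantile normalized between arrays, and signals quoted in the text are as deposited. First minus later was fitted in R 4.3.3 by limma 3.58.1, using lmFit and eBayes, with phenotype as a covariate, and described without a test. The interaction was tested two-sided, and its p-values were adjusted by Benjamini-Hochberg over the whole table. In a simulation of 22746 probe sets, with 50 differences per size planted in bright probe sets only, 18 of 162 calls were false. Figures used matplotlib 3.10.9.

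Gene names came from the platform annotation and were updated through gene identifiers to the TAIR10.1 table. Of the probe sets, 13513 had 1 gene, 503 several and 8730 none, 13436 matched the table and 1578 had a symbol other than a locus code. The naming rule took up to 12 genes with a symbol per direction among the shared changes, ranked by the smaller of the differences in Br and Ag, the 3 largest shared changes of each list, 10 fixed genes, of which GI, COR15A, RCA and AOP3 were measured, and up to 4 genes per direction called in the interaction test. For genes with several probe sets, the brightest was used. Lists were matched by symbol, and 7 matches to another gene of the same symbol were removed. Shares and medians of a list hold for its measured members only. The split, the members and the lists were chosen with earlier results of these data known. The labels call the arrays biological replicates, and any p measures the spread between pools.

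Whether arrays of the same replicate number belong together is not known. Deviations from the group means of same-numbered arrays correlated across probe sets at 0.32 for number 1, 0.029 for number 2 and 0.11 for number 3. The value for number 1 is the correlation of the first minus later differences within Br and within Ag over all probe sets. Alternatives covered the scaling, the pseudocount, a filter on dim probe sets, the probe sets used, a larger limit, a trend in eBayes, the replicate number as a block, a stricter adjusted p, and each array left out in turn.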

Additional observations from a re-analysis of the deposited data

How the results depend on the processing

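The counts of shared changes, 86 higher and 33 lower, moved most with the pseudocount and the limit. They were 448 and 429 with a pseudocount of 1, which gives weight to dim probe sets, 45 and 10 with a pseudocount of 64, 26 and 7 with a limit of 1.5, and 167 and 91 over all probe sets. The higher share of the calls was 72.3% and became 51.1% with a pseudocount of 1. With values as deposited they were 84 and 30, of which 83 and 29 were the same probe sets, and with median centring 78 and 36. Leaving out 1 array gave 78 to 177 higher and 31 to 115 lower changes. The widest shifts came without the first Ag array (177 and 115, a higher share of 60.6%) and without the first Br array (55 lower), where 1 phenotype alone has a first array and the condition holds for fewer arrays. Without the first Br array 55 of the 86 and 17 of the 33 remained, and without the first Ag array 79 and 27. Named genes lost as shared changes were SAG29, TRY and WSD1 with values as deposited, and SAG29 and WSD1 with median centring. With a pseudocount of 64 they were ARPN, CHIL, Cpn60beta2, DPE1, SAG29, SWEET2, TRY and WSD1, and with a limit of 1.5 these and PYK10, SCPL49, VTC4, ndhE and psaC. They were PYK10, SCPL49, DPE1, SAG29, VTC4 and SWEET2 without the first Br array, SAG29 without the second, and ARPN, Cpn60beta2, DPE1, PYK10, SAG29 and WSD1 without the third. They were ARPN, Cpn60beta2, TRY and WSD1 without the first Ag array, ARPN and SAG29 without the second, and TRY and WSD1 without the third. CHIL, SAG29, TRY and WSD1 had a mean signal under 50 and were left out by the filter on dim probe sets. Of 216 comparisons of a named gene's difference with an alternative, 30 moved by more than the spread between replicates. None reversed the sign of a shared change.

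The interaction test called 0 probe sets, and 8 of 9924 when dim probe sets (mean signal under 50) were left out. The lowest limma adjusted p was then 0.014, against 0.34 over all 22746. That setting tests fewer probe sets, and it also normalizes and fits the kept ones anew. The result of 0 calls thus depends on keeping dim probe sets in. The interaction test called 0 under each other alternative run, with 1415 to 2229 at an unadjusted p under 0.05 over all 22746. When a replicate block was added it called 0, with 1542 at an unadjusted p under 0.05. Signals near the bottom of the scale limit what can be said of dim genes, since detection calls were not used here.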
